A study of Mus musculus with 9 samples.

Results

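Sephs2, Aldh2 and Ndufab1, 3 of the 18193 genes named on an Affymetrix mouse array, are represented there by 13 probe sets out of 45037, with 3 for Sephs2, 5 for Aldh2 and 5 for Ndufab1. A probe set is a group of short probes that together give 1 expression value per array. These genes were picked because at least 1 of their probe sets was much lower in some antibiotic arrays while the brightest probe set of the same gene changed little. The differences from control given for the 13 probe sets are therefore the values that chose them, and are described without a test. 1 further probe set, 1447919_x_at, carries the symbols of both Ndufab1 and its pseudogene Ndufab1-ps and was not counted among the 13.

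Liver RNA of 9 female C57BL/6J mice was measured on 1 array each. The 3 control mice received no antibiotic. The PAT (pulsed antibiotic treatment) mice, 3 in each group, received amoxicillin at 25 mg/kg/day (0.167 mg/ml in drinking water) or tylosin at 50 mg/kg/day (0.333 mg/ml) on days 10 to 15, 28 to 31 and 37 to 40 of life. All mice were later fed a high-fat diet, and liver was taken at 22 weeks by the description of the study or 24 weeks by the sample labels. Litters were kept whole within a treatment group, and the litter of each sample is not given, so the spread between arrays of a group may hold both mouse and litter differences.

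Sephs2 encodes selenophosphate synthetase, which turns selenide and ATP into the selenium donor for selenocysteine, and is itself a selenoprotein. Aldh2 encodes the mitochondrial aldehyde dehydrogenase that oxidizes acetaldehyde to acetate, an abundant enzyme of the liver. Ndufab1 encodes the mitochondrial acyl carrier protein, which carries acyl chains in mitochondrial fatty acid synthesis, serves lipoate synthesis and iron-sulfur cluster assembly, and is also a subunit of respiratory complex I. These pathways are separate, and what the genes share here is the behaviour of single probe sets. The labelling of these arrays starts at the poly(A) tail, so a probe set reports the part of a transcript where its probes lie. Where the probes of each set lie, and their sequences, were not analysed here. A RefSeq annotation of the mouse lists 1 transcript for Sephs2, 2 for Aldh2 and 4 for Ndufab1.

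A single probe set of Sephs2, 1435602_at, stood far below control in 4 of the 6 antibiotic arrays. It was 11.08, 11.49 and 11.25 in the control arrays on the log2 scale of the robust multi-array average (RMA). With amoxicillin it was 9.18, 11.05 and 9.25 in replicates 1, 2 and 3. With tylosin it was 8.52, 8.67 and 10.70. Amoxicillin replicate 2 and tylosin replicate 3 thus lay close under the control arrays, while the other 4 lay at 14.9 to 24.6% of the control mean on the linear scale. The mean was 11.27 ± 0.21 for control, 9.83 ± 1.06 for amoxicillin and 9.30 ± 1.21 for tylosin (SD, n = 3 each), so the SD within either antibiotic group was large beside the difference of -1.45 or -1.98 on the log2 scale from control.

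The remaining pair of Sephs2 probe sets, both designed on the same RefSeq transcript, did not show this drop. The brightest, 1449040_a_at, whose suffix marks a probe set shared by alternative transcripts of 1 gene, was 12.30, 12.43 and 12.29 in control mice. It was 12.17, 12.24 and 11.96 with amoxicillin and 11.97, 11.84 and 12.16 with tylosin. All 6 antibiotic arrays were below all 3 control arrays, with mean differences of -0.21 and -0.35 on the log2 scale, so the brightest probe set of Sephs2 was not fully flat. 1418325_at ran from 11.44 to 11.81 in all 9 arrays, with differences of 0.10 with amoxicillin and -0.05 with tylosin, and both antibiotic groups overlapped the control arrays. Levels of different probe sets depend on their probes and were compared with each other only to name the brightest of a gene.

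For Aldh2, 2 of the 5 probe sets were low, in the same 4 arrays. 1434987_at was 5.64, 7.27 and 5.76 with amoxicillin and 5.35, 5.29 and 7.17 with tylosin, against 7.38, 7.43 and 7.77 in the control arrays. 1434988_x_at, whose suffix marks probes that may also bind other transcripts, was 6.10, 7.15 and 5.97 with amoxicillin and 5.43, 5.91 and 7.15 with tylosin, against 7.43, 7.63 and 7.63 in the control arrays. Amoxicillin replicate 2 and tylosin replicate 3 were again just below the lowest control array. The means of 1434987_at differed from control by -1.31 and -1.59 on the log2 scale, and those of 1434988_x_at by -1.15 and -1.40, for amoxicillin and tylosin. The array annotation gives no accession for either probe set.

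The brightest probe set of Aldh2, 1448143_at, designed on a RefSeq transcript of the gene, stayed between 12.87 and 13.11 in all 9 arrays. Its mean was 13.01 ± 0.09 for control, 13.03 ± 0.05 for amoxicillin and 13.00 ± 0.12 for tylosin (SD, n = 3 each). The highest value of any probe set was 14.71. 1437410_at and 1457155_at, designed on other sequences, ran from 6.93 to 7.88 and from 5.56 to 6.11. 1437410_at was 0.35 higher with amoxicillin, with all 3 arrays above control, and 0.26 higher with tylosin, with overlap. 1457155_at differed by 0.05 and 0.17, with overlap in both groups.

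For Ndufab1, 1428160_at was low in these 4 arrays as well. It was 6.03, 7.21 and 5.95 with amoxicillin and 5.89, 5.63 and 7.72 with tylosin, against 7.79, 7.51 and 7.63 in the control arrays. Tylosin replicate 3 lay within the control range here, while amoxicillin replicate 2 was below it. The group means were 7.64 ± 0.14, 6.40 ± 0.70 and 6.41 ± 1.14 (SD, n = 3 each), which puts the differences from control at -1.25 and -1.23 on the log2 scale.

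The brightest Ndufab1 probe set, 1428159_s_at, was designed on the same sequence as 1428160_at, and its suffix marks probes common to several transcripts, which may come from more than 1 gene. It stayed between 10.61 and 10.92 in all 9 arrays, with differences of 0.04 and 0.07. The probe set shared with the pseudogene, 1447919_x_at, was 10.10 to 10.40 for control, 10.42 to 10.69 for amoxicillin and 10.38 to 10.45 for tylosin, so it was not low in any antibiotic array. 1458678_at, 1435934_at and 1453565_at were under a log2 value of 6 in every array. Such dim values lie nearer to the background of the array. The other 10 of the 13 probe sets were over 6 in at least 3 arrays. The dim ones ran from 3.34 to 5.15, and none was low in the 4 arrays together. Among them, 1435934_at was 0.44 higher with tylosin, with all 3 tylosin arrays above control.

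**Figure D1:**
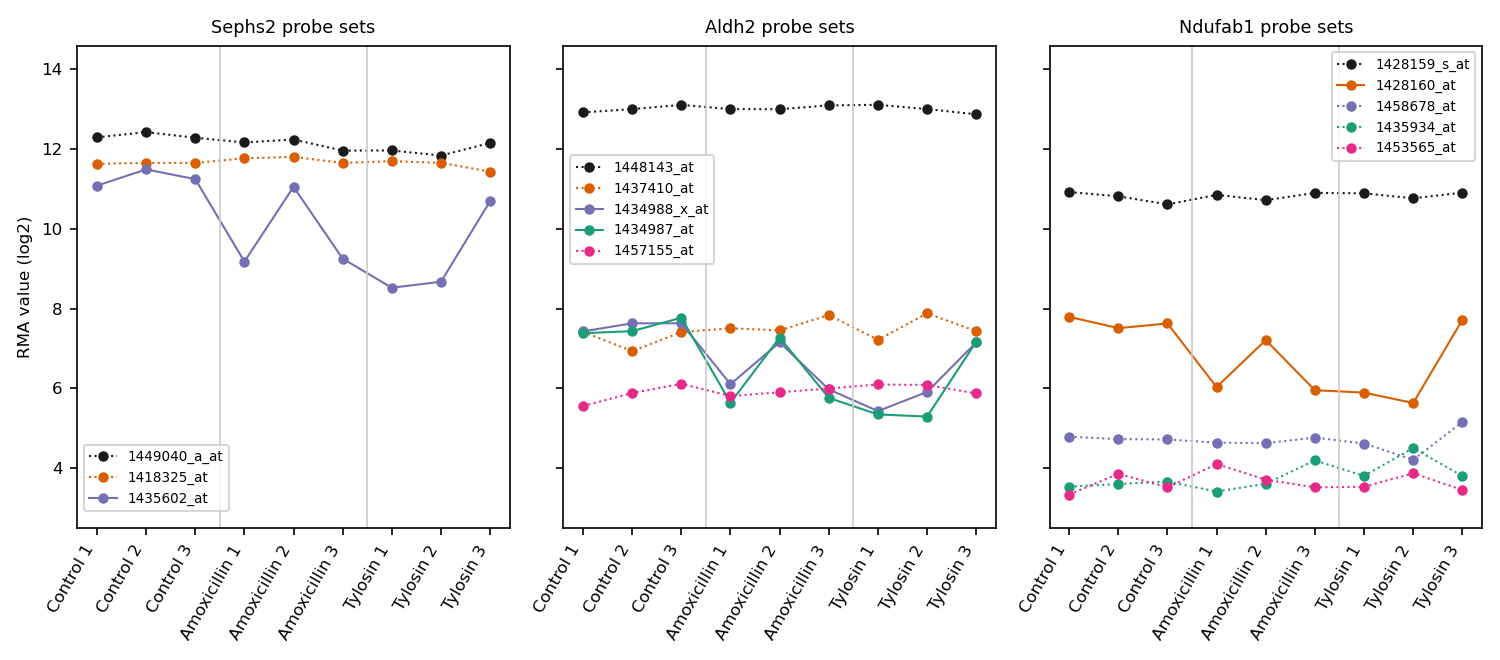
RMA value (log2) of the 13 probe sets of Sephs2, Aldh2 and Ndufab1 in each of the 9 arrays, by group and replicate. Solid lines mark the 4 low probe sets, whose values drop in amoxicillin replicates 1 and 3 and tylosin replicates 1 and 2, and dotted lines the other 9. Lines join the arrays for reading only, and heights of different probe sets are not comparable.

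Of the 13 probe sets, 5 had all 3 amoxicillin arrays below all 3 control arrays, where 10.8% of all probe sets did, and 4 had all tylosin arrays below control, where 8.87% of all did. Above control were 1 with amoxicillin (8.34% of all) and 1 with tylosin (7.01% of all). Since the genes were picked on these contrasts, nothing is read from these counts. In bulk liver RNA, fewer cells of a type and less RNA per cell cannot be told apart.

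The size of the inequality within each gene was taken as the change of a probe set from its control mean minus the change of the brightest probe set in the same array. For 1435602_at of Sephs2 this was -1.92, -0.13 and -1.65 with amoxicillin and -2.38, -2.10 and -0.40 with tylosin, against -0.15 to 0.13 in the control arrays. For 1434987_at of Aldh2 it was -1.88, -0.25 and -1.85, then -2.28, -2.23 and -0.22. For 1428160_at of Ndufab1 it was -1.68, -0.37 and -1.81, then -1.86, -1.99 and -0.05. All 4 low probe sets thus lay below the range of the control arrays by over 1 log2 unit in amoxicillin replicates 1 and 3 and tylosin replicates 1 and 2. In the other antibiotic arrays, amoxicillin replicate 2 and tylosin replicate 3, they lay between -0.40 and -0.05.

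The group means of this measure were -1.23 ± 0.97 with amoxicillin and -1.63 ± 1.07 with tylosin for 1435602_at, and -1.33 ± 0.94 and -1.58 ± 1.17 for 1434987_at (SD, n = 3 each). They were -1.18 ± 0.68 and -1.38 ± 1.01 for 1434988_x_at, and -1.28 ± 0.80 and -1.30 ± 1.08 for 1428160_at. The means of both antibiotics differed by less than the SD within either group for each of the 4 probe sets. The other 6 probe sets that are not the brightest of their gene had means of -0.16 to 0.37. A probe set was termed low where this mean was under -1 with an antibiotic, a bound set after the values were seen, and the mean nearest to it among the low ones was -1.18, that of 1434988_x_at with amoxicillin. With an array left out, or with another scale or reference, 3 of the 4 low probe sets passed above -1 with an antibiotic, the smallest difference being -0.89 for 1435602_at without amoxicillin replicate 1.

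**Figure D2:**
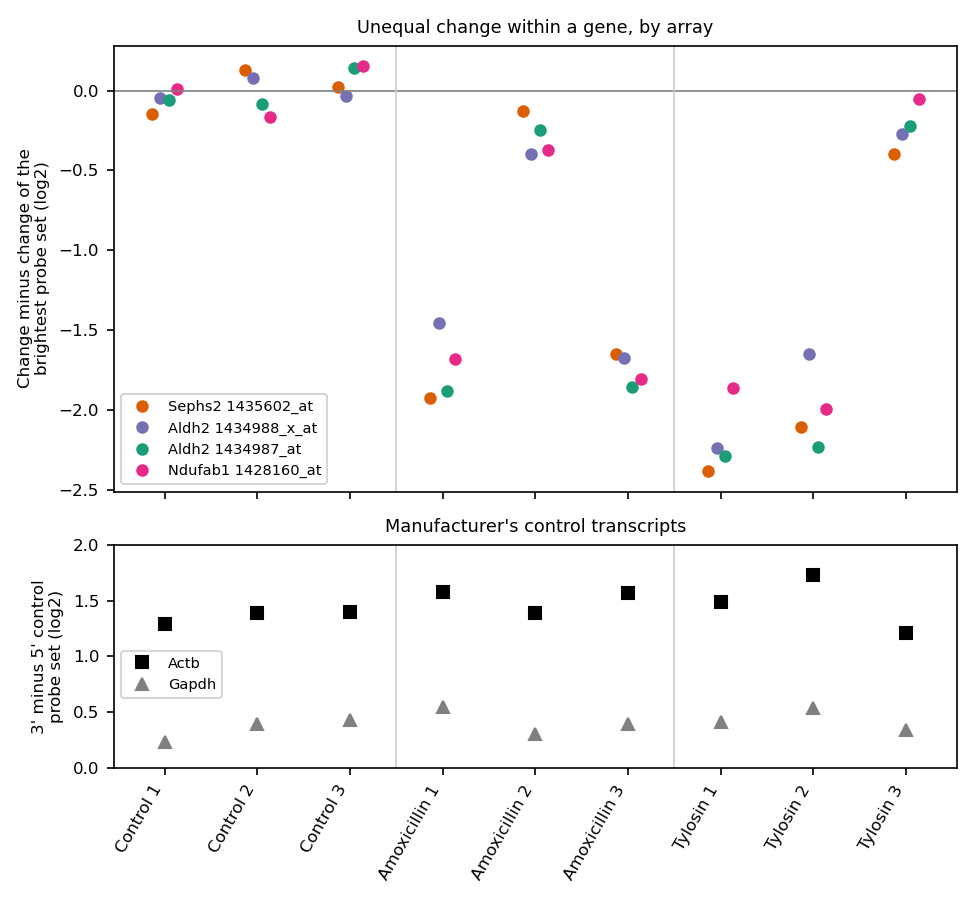
Upper panel, change from the control mean minus the same change of the brightest probe set of the gene (log2), for the 4 low probe sets in each array. Lower panel, 3′ minus 5′ control probe set (log2) of Actb and Gapdh in the same arrays. Amoxicillin replicates 1 and 3 and tylosin replicates 1 and 2 hold all points under -1 in the upper panel and the 4 highest Actb values in the lower.

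The 4 low probe sets shared 1 division of the arrays, though not the full order. In each, tylosin replicates 1 and 2 were the lowest pair, amoxicillin replicates 1 and 3 came next, and a step of 1.05 to 1.44 on the log2 scale separated them from the other 5 arrays. Pearson's r over the 9 arrays, given as a description, was 0.987 between 1435602_at of Sephs2 and 1434987_at of Aldh2, 0.953 between 1435602_at and 1428160_at of Ndufab1, and 0.972 between 1434987_at and 1428160_at. All pairs share the same arrays and the step between the 4 low and 5 high arrays, and r within either set of arrays was not computed.

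The pattern was set beside the other probe sets that reached a log2 value over 6 in 3 or more arrays. Those most like 1435602_at of Sephs2, among probe sets of other single genes, were 1434987_at and 1434988_x_at of Aldh2 and 1458372_at of Tmc8 (r of 0.987, 0.986 and 0.985, n = 9 arrays). Those most like 1434987_at of Aldh2 were 1437729_at of Rpl27a, a protein of the large ribosomal subunit, 1425884_at of Rpf2, a factor of ribosome assembly, and 1435602_at (0.995, 0.989 and 0.987). Those most like 1428160_at of Ndufab1 were the same probe sets of Rpf2 and Rpl27a and 1420037_at of Atp5a1, the alpha subunit of mitochondrial ATP synthase (0.991, 0.988 and 0.979). Of 12767 other probe sets, 11 to 18 had r over 0.95 with each of the 4 low probe sets and 12 to 21 had r under -0.95.

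Atp5a1 had 3 probe sets and showed the same contrast within a gene. 1420037_at was 7.17, 8.06 and 7.39 with amoxicillin and 7.12, 6.84 and 8.25 with tylosin, against 8.56, 8.52 and 8.47 in the control arrays, and was again lowest in amoxicillin replicates 1 and 3 and tylosin replicates 1 and 2. Its brightest probe set, 1423111_at, stayed between 11.89 and 12.11, and 1449710_s_at between 11.86 and 11.99. For Rpl27a and Rpf2 the low probe set was itself the brightest with a single symbol. 1437729_at of Rpl27a was 6.76, 8.61 and 6.80 with amoxicillin and 6.45, 6.32 and 8.71 with tylosin, against a control mean of 8.90 ± 0.09 (SD, n = 3). 1425884_at of Rpf2 was 6.32, 7.48 and 6.41 with amoxicillin and 6.15, 6.02 and 7.80 with tylosin, against 7.67 to 7.91 in the control arrays. The other probe sets of these genes were all under 6, between 2.15 and 5.27. Tmc8 had 1 probe set, which ran from 7.43 to 7.64 in control mice. It was 6.88, 7.35 and 6.81 with amoxicillin and 6.76, 6.75 and 7.32 with tylosin.

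**Figure D3:**
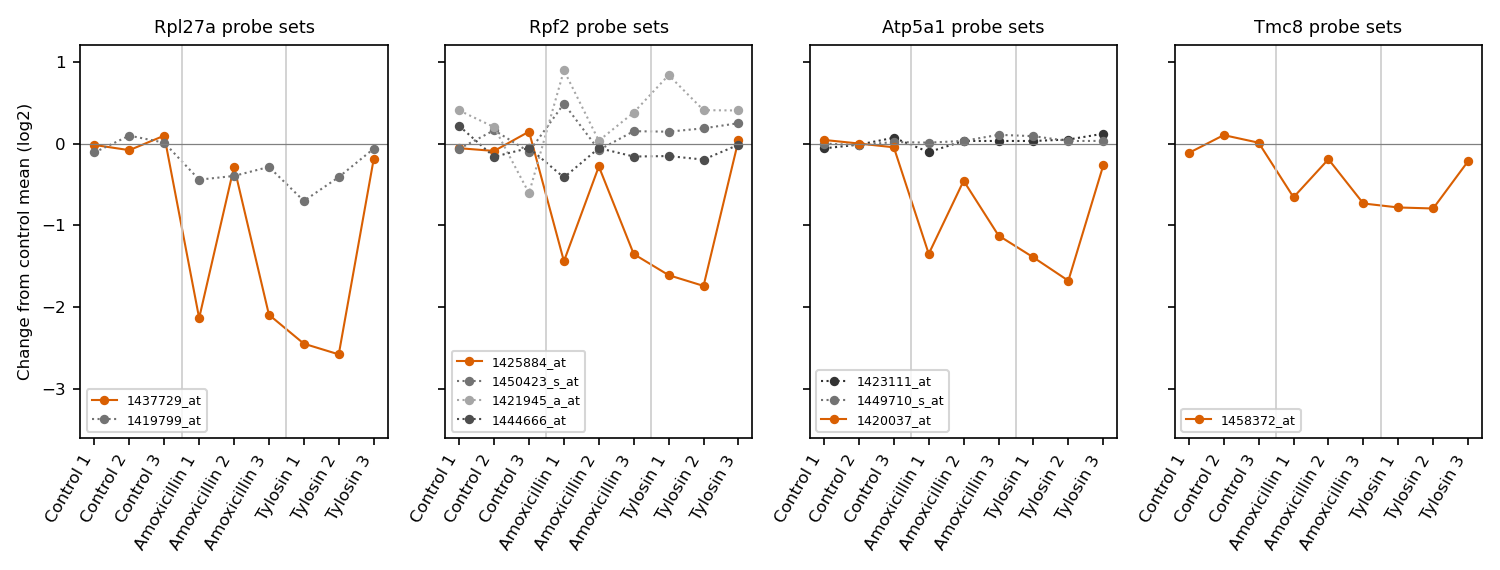
Change from the control mean (log2) of every probe set of Rpl27a, Rpf2, Atp5a1 and Tmc8 in the 9 arrays. Orange solid lines are the probe sets found by their likeness to the low probe sets, and grey dotted lines the other probe sets of the gene; in Atp5a1 the latter stay near 0 in all 9 arrays.

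Among 2689 genes with at least 2 probe sets that reached a log2 value over 6 in 3 or more arrays, the mean change over the 6 antibiotic arrays differed between the highest and the lowest probe set of a gene by a median of 0.16 on the log2 scale. The 99th percentile was 0.80, and 12 genes were over 1. Aldh2 had the widest difference of these genes, at 1.75, Sephs2 the next, at 1.73, and Ndufab1 the third, at 1.29. These places follow from how the genes were picked. With probe sets of any level, the differences were 1.75, 1.73 and 1.53, and Ndufab1 was at place 5 of 9010 genes.

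**Figure D4:**
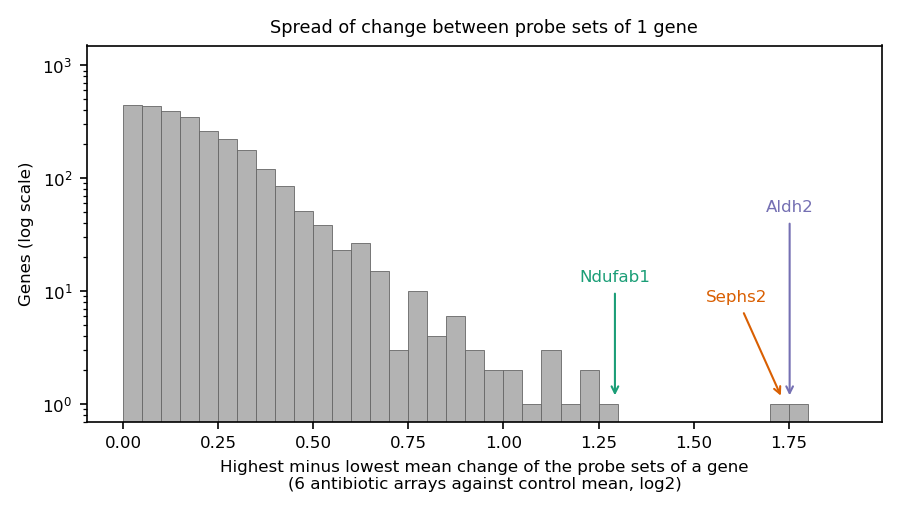
Number of genes (log scale) by the difference between the highest and lowest mean change of their probe sets (log2), for the 2689 genes with at least 2 probe sets over 6 in at least 3 arrays. Most genes lie under 0.8, and the arrows mark Ndufab1 at 1.29, Sephs2 at 1.73 and Aldh2 at 1.75.

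Measures of the arrays that the choice of genes did not use were set beside the 4 low probe sets. The control probe sets of the manufacturer at the 3′ and 5′ ends of Actb, whose difference grows where RNA is degraded or labelled over a shorter stretch, differed by 1.57 in amoxicillin replicates 1 and 3 and by 1.49 and 1.73 in tylosin replicates 1 and 2. In the control arrays the difference was 1.29, 1.39 and 1.40, in amoxicillin replicate 2 1.39 and in tylosin replicate 3 1.21. The 4 arrays with low probe sets thus had the 4 highest Actb differences. For Gapdh the same difference was 0.54 and 0.39, and 0.41 and 0.53, in these 4 arrays, against 0.23 to 0.43 in the other 5, so the ranges overlapped. Set against the middle of the transcript, the 3′ probe set was 0.39 to 0.48 higher for Gapdh in the 4 arrays and 0.24 to 0.36 in the other 5, and for Actb 1.05 to 1.25 and 0.84 to 0.997, with no overlap in either. The SD of all values of an array was 2.31 to 2.35 in the 4 arrays and 2.26 to 2.30 in the other 5. The 3′ minus 5′ difference of pyruvate carboxylase was 4.86 to 5.48 in the 4 arrays and 5.27 to 5.76 in the other 5. That of 18S ribosomal RNA was -1.32 to -0.85 and -0.95 to -0.64. The part of RNA quality or labelling in the low values was not tested.

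Among marker lists of other cell types, only the mean of the endothelial list separated the 4 arrays with low probe sets from the others. Markers of intestinal mucosa (9 of 9 measured, 4 under 6 in every array) had a mean log2 value of 4.81 to 4.85 in control mice, 4.62 to 6.97 with amoxicillin and 4.90 to 6.82 with tylosin. They were highest in amoxicillin replicate 1 (6.97) and tylosin replicate 2 (6.82). The mean of 5.41 in tylosin replicate 1 was carried by Reg3b, an antimicrobial lectin of the gut, at 7.75 against 3.07 to 3.15 in control mice, and in part by Zg16, while Fabp2 was at 10.90 and Krt20 at 3.37, not above the control arrays. In amoxicillin replicate 3 the mean was 4.74, with Fabp2 (11.62) and Lgals4 (7.25) above and Reg3b (2.70) and Muc2 (3.19) below all control arrays.

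Markers of smooth muscle (6 of 6 measured, 2 under 6 in every array) reached 6.16 in amoxicillin replicate 1 and 6.49 in tylosin replicate 2, and were 4.25 to 4.62 in the other 7 arrays. The mean of those of cholangiocytes (4 of 4 measured, 3 under 6 in every array) was high in the same pair, at 5.22 and 4.84, against 4.05 to 4.27 in the other 7. It was carried by Epcam (7.10 and 6.48) and Krt19 (5.64 and 4.90). Krt7 (3.53 and 3.21) and Sox9 (4.62 and 4.78) were not above the control arrays. Endothelial markers (4 of 4 measured, 1 under 6 in every array) were 6.81 to 6.88 in control mice and 6.94 to 7.15 in all 6 antibiotic arrays. Their mean was 7.01 to 7.15 in the 4 arrays with low probe sets and 6.81 to 6.94 in the other 5, without overlap. Each of the 4 markers taken singly did overlap between these sets of arrays. Kupffer cell and macrophage markers (6 of 6 measured) had their highest means in tylosin replicate 3 (9.45) and amoxicillin replicate 1 (9.17), with 8.08 to 8.99 in control mice. The members went opposite ways in tylosin replicate 3. Marco (10.95), Cd5l (11.95), Adgre1 (9.59) and Timd4 (7.29) had their highest value there. Clec4f (7.50) and Vsig4 (9.40) had their lowest. Hepatocyte markers (4 of 5 measured) were 14.23 to 14.30 in all 9 arrays. The part of other cell types in the low values was not tested.

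Genes of the pathways around these enzymes were tested with limma over all 45037 probe sets, and calls required P under 0.01, unadjusted, with a log2 fold change beyond 0.5 in either direction. The 8 lists held 276 probe sets other than the 13. Of these, 2 were called with amoxicillin (0.725%, against 1.35% over the whole array, 0.993% higher and 0.357% lower), 3 with tylosin (1.09%, against 1.42% over the whole array, 1.03% higher and 0.382% lower) and 0 between the antibiotics (0.0933% over the whole array; 5 of the 276 had an unadjusted p under 0.05). The share called in the lists was not above that of all probe sets. After Benjamini-Hochberg adjustment limma called 0 of all probe sets at 0.05, with 6657, 6722 and 1335 under an unadjusted p of 0.05 in the 3 comparisons. The number called in the lists with amoxicillin was 4 without control replicate 1, control replicate 3 or amoxicillin replicate 2, 6 without control replicate 2, and 1 without amoxicillin replicate 1, amoxicillin replicate 3 or tylosin replicate 2. With tylosin it was 5 without tylosin replicate 3.

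Of the selenocysteine machinery, which had 19 probe sets, Sepsecs was called higher with both antibiotics. Sepsecs makes selenocysteine on its transfer RNA from the selenophosphate that Sephs2 supplies. It was 8.52, 8.40 and 8.60 with amoxicillin and 8.64, 8.75 and 8.23 with tylosin, against 8.04, 8.01 and 7.95 in the control arrays, and the control arrays did not overlap either group. The log2 fold change was 0.51 ± 0.13 with amoxicillin (SE; limma, adjusted p = 0.21) and 0.54 ± 0.13 with tylosin (SE; limma, adjusted p = 0.19). Both comparisons use the same control arrays. Sepsecs was highest in amoxicillin replicates 1 and 3 and tylosin replicates 1 and 2, the arrays where the low probe sets fell. Amoxicillin replicate 2 (8.40) and tylosin replicate 3 (8.23) lay nearer to control, though above it. Whether the calls of Sepsecs rest on this division of the arrays was not tested. The amoxicillin call was lost without control replicate 3 (0.48) or amoxicillin replicate 3 (0.46), the tylosin call without tylosin replicate 1 (0.49) or 2 (0.44), and both with quantile normalization (0.41 and 0.45). A dim probe set of Sephs1, the paralogue of Sephs2, was called lower with amoxicillin, at a log2 fold change of -0.52 from 4.75 in control mice. This call was lost without control replicate 2 (-0.34), amoxicillin replicate 1 (-0.498), amoxicillin replicate 3 (-0.45) or tylosin replicate 2 (-0.52), and also with median centring (-0.47) or quantile normalization (-0.51).

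Of the selenoproteins other than Sephs2, with 43 probe sets of 22 genes, Dio1, the iodothyronine deiodinase that activates thyroid hormone, was called lower with tylosin. It was 10.51, 10.80 and 10.73 with amoxicillin and 10.28, 10.40 and 10.59 with tylosin, against 11.00, 10.82 and 11.20 in the control arrays. All 3 tylosin arrays were below control, at -0.58 ± 0.13 on the log2 scale (SE; limma, adjusted p = 0.18), and the call was lost without control replicate 3 (-0.49). No other selenoprotein was called with either antibiotic.

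Of the aldehyde dehydrogenases other than Aldh2, with 31 probe sets of 19 genes, 1 dim probe set of Aldh18a1, the enzyme of proline synthesis, was called higher with tylosin. It was 3.27 to 3.54 in control mice and 3.79, 4.05 and 5.21 with tylosin, and the call was lost without tylosin replicate 3 (0.49), any control array (0.85 to 0.98) or any amoxicillin array (0.92), and with the replicate number as a block (0.92). No probe set of ethanol and acetaldehyde metabolism (18, of which 0 with amoxicillin and 0 with tylosin had an unadjusted p under 0.05 in limma) was called with either antibiotic. No probe set of complex I (70, of which 8 and 7 had an unadjusted p under 0.05), of mitochondrial fatty acid synthesis and lipoate (23, of which 2 and 0) or of iron-sulfur assembly (17, of which 2 and 1) was called. Of all 45037 probe sets, 6657 with amoxicillin and 6722 with tylosin were under 0.05 in limma without adjustment.

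Cleavage and polyadenylation factors, which set the 3′ ends of transcripts, had 61 probe sets and 0 calls with either antibiotic in limma. Of the 61, 20 for amoxicillin and 17 for tylosin had P under 0.05 before adjustment, beside 6657 and 6722 of all 45037 probe sets. Both shares were above those of all probe sets, which include dim ones, and the share among brighter ones was not computed. Any link of these values to the low probe sets or to the division of the arrays was not tested. The median log2 fold changes of these factors were 0.16 and 0.17, beside -0.03 and -0.02 over all probe sets and 0.07 and 0.08 over those that reached 6 in 3 or more arrays.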

How the data were processed

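Liver RNA of 9 mice was hybridized to Affymetrix arrays, 1 array per sample. The authors normalized the arrays with RMA (affy), and the deposited values are log2 expression values, 1 per probe set and array; no version of RMA is stated in the sources read. RMA values at the bright end are compressed and those under about 6 carry more background, and the number of arrays limits the precision. The 64 controls of the manufacturer were excluded, leaving 45037 probe sets for testing. In the array annotation 34945 of these carry 1 gene symbol, 932 several and 9160 were unnamed; symbols were updated through the gene identifier in a RefSeq table of GRCm38. No coordinates were used.

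Comparisons were made in 1 limma fit (version 3.58.1, R 4.3.3) to all 9 arrays, called as in the study's methods (P under 0.01 without adjustment, log2 fold change beyond 0.5). The brightest probe set had the highest mean over 9 arrays. Other genes were named where called in a list, where among the 3 probe sets most like a low one, or where among the 3 other genes with the widest difference between probe sets. The members and lists were chosen with earlier results of these data known. The procedure was tested on simulated data. Python 3.11.15 and matplotlib 3.10.9 served for the figures. Alternatives were the adjusted p, leaving out dim probe sets, quantile normalization, median centring, trended and robust variance, fits of only the groups compared, a replicate block, other references for the unequal change, and each array left out in turn.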

Additional observations from a re-analysis of the deposited data

How the results depend on the processing

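The lower change of the 4 low probe sets than of their brightest probe set kept its direction under each of the alternatives run. These probe sets were picked on this measure, so the alternatives could hardly turn its direction, and nothing is read from that. The size of this lower change passed above -1 in some of the alternatives, for all but 1434987_at. The SD within a group holds the step between low and other arrays, so a shift of less than 1 SD, which all of them gave, says nothing of stability. Median centring cannot alter it. With the mean of the other probe sets of the gene as reference it was -1.78 to -0.93, and as log2 of linear means -1.31 to -0.96. With single arrays left out it was -1.79 to -0.89 with amoxicillin and -2.24 to -1.25 with tylosin for 1435602_at, -1.56 to -0.93 and -1.94 to -0.96 for 1434988_x_at, -1.87 to -1.05 and -2.26 to -1.23 for 1434987_at, and -1.74 to -1.02 and -1.93 to -0.96 for 1428160_at.

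The number of probe sets called was 608 with amoxicillin, 638 with tylosin and 42 between the antibiotics. It was 0 in each with the adjusted p, and 216, 256 and 17 once dim probe sets were left out. With single arrays left out it was 397 to 928, 470 to 1556 and 36 to 137. In the lists it was 0 in both comparisons with control under the adjusted p, 1 with amoxicillin without dim probe sets, and 4, 5 and 1 with median centring. With single arrays left out the lists had 1 to 6, 2 to 5 and 0 to 1. Of the calls of single list probe sets, 21 of 63 repeats lost the call and none changed direction. The share called higher was 73.5% and 73% with amoxicillin and tylosin, 85.2% and 85.5% without dim probe sets, 89.3% and 88.9% after centring on the median and 64.1% and 60.2% after quantile normalization.

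Same-numbered arrays share only a number: 2 of 9 such pairs had a correlation of their deviations over 0.1 (-0.25 to 0.15). With the replicate block 69 probe sets were called between the antibiotics; the cause was not tested. Each group has 3 arrays, and probe sets under 6 lie near the array's background.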

Other observations

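The 3 other genes with the widest difference of change between their bright probe sets were Slc39a14, Malat1 and Cyp4a31. Slc39a14, a zinc and iron transporter, had 4 such probe sets, whose mean change over the 6 antibiotic arrays ran from 0.01 to 1.26 on the log2 scale. Malat1, a nuclear long noncoding RNA, had 6, at 0.39 to 1.61. In both genes the differing probe sets were higher than control, where those of Sephs2, Aldh2 and Ndufab1 were lower. Cyp4a31, a fatty acid hydroxylase of a family of near-identical genes, had 2, at -0.62 and 0.56.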
